A study of Mus musculus with 34 samples.

Results

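Serotonergic neurons make, package and take back serotonin, and 6 genes by which they are usually recognised were followed here: Nkx2-2, Gata2, Gata3, Fev, Tph2 and Slc6a4. They were chosen by name, with earlier results of these data known, as rows of a table of expected counts. It held 29876 mouse gene entries, and all 6 had a row. The cells were mouse cells differentiated in culture toward midbrain dopaminergic neurons, with deletion neurons from heterozygous mutants of the 7qF3 region (genotype label 129Sv df/+), duplication-deletion neurons carrying both rearrangements (129Sv df/dp) and control neurons (129Sv +/+); the background strain label was C57BL/6N for every group. RNA was sequenced from 28 libraries in 9 groups, these 3 genotypes in undifferentiated embryonic stem cells (ESCs), in progenitors of the neural lineage harvested on day 5 (NPCs) and in immature neurons of day 16. The 7qF3 region corresponds to the human 16p11.2 region. The neurons comprised 2 deletion, 2 duplication-deletion and 4 control libraries, the NPCs 3, 3 and 5 libraries in the same order, and the ESCs 3 of each. The labels describe mutant and control cell lines and do not give the number of independent lines for a genotype or say that replicates were separate cultures, so every p-value below measures the spread between these libraries.

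In the embryonic ventral hindbrain, Nkx2-2 marks the progenitors that give rise to serotonergic neurons, and the zinc-finger factors Gata2 and Gata3 act as those cells leave the cell cycle. Fev, also called Pet1, is an ETS-family factor that in the brain is largely restricted to serotonergic neurons and switches on their transmitter genes. Tph2 encodes the neuronal tryptophan hydroxylase that carries out the rate-limiting step of serotonin synthesis, and Slc6a4 encodes the transporter that returns serotonin to the cell. Nkx2-2, Gata2 and Gata3 are not private to this lineage: Gata2 and Gata3 also act with Tal1 in GABAergic neurons of the midbrain and spinal cord, and Nkx2-2 in other ventral cells.

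The 6 genes lie, in build mm9 as given in the authors' deposited table, on chromosome 1 (Fev, 74928083 to 74931982), chromosome 2 (Gata3, 9778705 to 9800227, and Nkx2-2, 147003282 to 147012138), chromosome 6 (Gata2, 88143885 to 88157026), chromosome 10 (Tph2, 114515697 to 114622078) and chromosome 11 (Slc6a4, 76812099 to 76845845), so none is within the rearranged region of chromosome 7. The 250 bases upstream of the start of Fev, Tph2 and Slc6a4 are shown because these 3 genes hold a GATA word there, the letters that the product of another member can bind. The sequences are from RefSeq, build GRCm38.p6, 5′ to 3′ on the strand of the gene. Capitals mark words found on either strand: for GATA factors AGATAA or the form AGATAG that ends in another base, likewise TGATAA or the form TGATAG, and for ETS factors ACGGAA or the form CCGGAA.

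Fev, chr1:74885409-74885658, minus strand: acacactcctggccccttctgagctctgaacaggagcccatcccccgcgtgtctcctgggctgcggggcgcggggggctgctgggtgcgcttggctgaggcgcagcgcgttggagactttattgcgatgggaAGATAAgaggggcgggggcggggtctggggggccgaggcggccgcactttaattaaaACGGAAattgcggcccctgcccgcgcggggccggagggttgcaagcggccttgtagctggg

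Tph2, chr10:115185023-115185272, minus strand: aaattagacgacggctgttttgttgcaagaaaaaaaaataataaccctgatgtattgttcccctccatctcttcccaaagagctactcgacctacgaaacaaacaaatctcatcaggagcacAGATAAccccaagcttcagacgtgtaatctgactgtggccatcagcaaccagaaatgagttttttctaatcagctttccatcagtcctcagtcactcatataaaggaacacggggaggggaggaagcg

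Slc6a4, chr11:76998347-76998596, plus strand: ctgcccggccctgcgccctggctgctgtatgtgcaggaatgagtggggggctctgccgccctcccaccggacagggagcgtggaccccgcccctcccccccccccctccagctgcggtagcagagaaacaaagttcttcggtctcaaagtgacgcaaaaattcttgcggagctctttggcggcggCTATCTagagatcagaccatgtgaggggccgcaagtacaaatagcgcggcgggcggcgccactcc

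Fev held AGATAA at 118 to 113 bases before its start and the ETS word ACGGAA at 61 to 56 bases. Tph2 held AGATAA at 128 to 123 bases before its start. In Slc6a4 the word AGATAG lay on the opposite strand, 65 to 60 bases before the start, and is read as CTATCT above. Gata3 held an ETS word only, and the windows of Gata2, which has a pair of starts, and of Nkx2-2 held neither kind. Of 32841 promoters of the same length, 26.5% held a GATA word and 16.2% an ETS word. The search describes letters in these windows and measures no binding.

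The libraries held 5578151 to 78814037 expected counts, and the 8 neuron libraries 41892753 to 56031950. As a check of the genotype labels, the median level of the 7qF3 genes in each deletion library was 41.6% and 58.9% of the control mean in neurons, 45.0% to 73.8% in NPCs and 37.9% to 51.6% in ESCs; in duplication-deletion libraries it was 86.4% and 83.0% in neurons, 72.5% to 123% in NPCs and 76.9% to 126% in ESCs, and in the single control libraries 73.6% to 119%, 82.7% to 112% and 77.4% to 132%. Deletion NPC replicate 5, at 73.8%, was above duplication-deletion NPC replicate 2, at 72.5%, so the values did not separate these 2 genotypes in NPCs. Levels are given as CPM, counts scaled to a common library total over all 28 libraries, with the SD over libraries, and a level cannot be compared between genes because gene length was not taken out. In such bulk samples, fewer cells of a type and less RNA per cell cannot be told apart. Differences are log2 fold changes with their standard error from edgeR's quasi-likelihood test, two-sided, with Benjamini-Hochberg adjusted p-values over all genes tested and a threshold of 0.05.

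**Figure D1:**
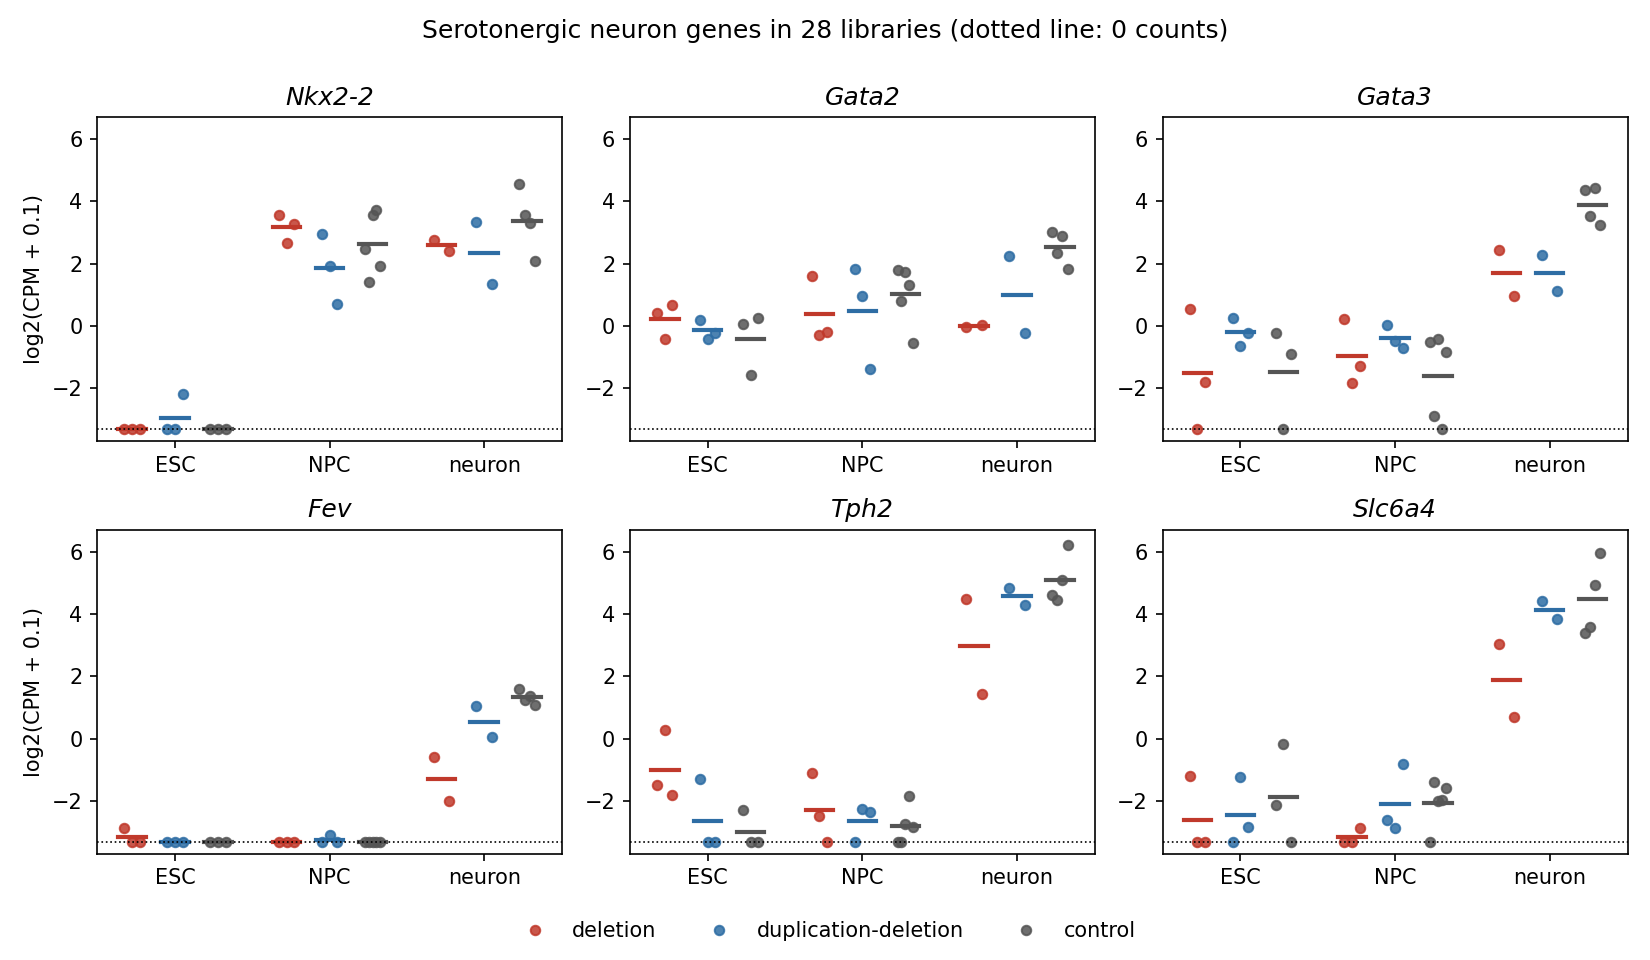
Level of each of the 6 genes in every library as log2(CPM + 0.1), by stage and genotype; points are libraries, short lines are group means on this scale, and the dotted line is 0 counts. Fev, Tph2 and Slc6a4 lie at or near the dotted line in most ESC and NPC libraries and rise in neurons, whereas Nkx2-2 is already present in NPCs and Gata2 at all 3 stages.

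In control cells the 6 genes were called higher at different steps. Nkx2-2, the progenitor factor, was called at the first: it had 0 counts in all 3 control ESC libraries and 96 to 709 counts in the 5 control NPC libraries. Against a floor of 3 counts over the control ESCs, its level in control NPCs was at least 239-fold higher (adjusted p = 5.63e-05), and it was the 1 member of 6 called between these stages, where 21% of all genes were called higher. With 0 counts in control ESCs, Nkx2-2 could only be called higher. Gata2 had 15, 95, 121, 194 and 274 counts in control NPCs against 8, 25 and 37 in control ESCs; its difference of 1.55 ± 0.64 did not pass the threshold (adjusted p = 0.0669). The other 4 genes were at low counts in control NPCs, and Gata3, with 29, 0 and 10, and Slc6a4, with 5, 27 and 0, had some counts in control ESCs already. Fev had 0 counts in every one of them, Tph2 had 0 to 9, Slc6a4 had 0 to 16 and Gata3 had 0 to 49.

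Tph2 and Slc6a4, the transmitter genes, were called at the step between NPCs and neurons. In control neurons 5 of the 6 members were called higher than in control NPCs, where 23.2% of all 18365 genes tested were called higher. Fev and Tph2 did not pass the filter on low counts among NPCs or among ESCs. They entered this fit through the neuron libraries and could only be called higher, so the count of members is not comparable with that share. Fev, the factor upstream of the transmitter genes, had 112 to 152 counts in the 4 control neuron libraries and none in the 5 control NPC libraries, at least 219-fold higher (adjusted p = 0.000136). Tph2 was higher by 9.57 ± 0.87 on the log2 scale (adjusted p = 1.83e-06), with 38.6 ± 24.5 CPM in control neurons (SD, n = 4) and 0.0531 ± 0.0729 CPM in control NPCs (SD, n = 5); without NPC control replicate 4, which held 9 of the 13 NPC counts, it was 10.89. Slc6a4 was higher by 7.54 ± 0.99 (adjusted p = 4.08e-05), or 6.84 without neuron control replicate 4, and Gata3 by 5.51 ± 1.02 (adjusted p = 0.000651).

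Gata2 was higher in control neurons by 1.44 ± 0.54 with an adjusted p of 0.0441, a call that was lost when neuron control replicate 1, 2 or 3, NPC control replicate 2, 4 or 5, or ESC control replicate 1 was left out (adjusted p from 0.0517 to 0.116). Nkx2-2 differed by 0.77 ± 0.56 (adjusted p = 0.296): it averaged 12.2 ± 8.10 CPM in control neurons (SD, n = 4) and 7.30 ± 4.79 CPM in control NPCs (SD, n = 5). The 4 members with the fewest counts in control NPCs had the large differences, and the 2 that were already present had the small ones. A fold change over NPCs grows as the NPC level nears 0, so this order is not a separate result.

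In deletion neurons, both libraries lay below every control library for Fev, Gata2, Gata3 and Slc6a4, with mean levels of 14.8% to 23.0% of the control mean, but no member passed the adjusted threshold in edgeR. Fev had 0.568 and 0.150 CPM in deletion neurons, from 27 and 9 counts, against 2.90, 2.28, 2.50 and 2.02 CPM in control neurons, from 135, 112, 142 and 152 counts. Both deletion libraries lay below every control library. The log2 fold change was -2.74 ± 0.73 and ranked 58th by p-value among the 17931 genes tested, with an adjusted p of 0.999964 (edgeR).

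Gata2 had 0.883 and 0.932 CPM in deletion neurons against 8.06, 5.02, 7.36 and 3.44 CPM in control neurons. The deletion libraries nearly coincided with each other and did not overlap the control libraries, with a log2 fold change of -2.70 ± 0.77 (rank 74, adjusted p = 0.999964, edgeR). Gata3 had 5.34 and 1.86 CPM in deletion neurons against 20.3, 11.4, 21.7 and 9.37 CPM in control neurons. These groups did not overlap either, and the log2 fold change was -2.10 ± 0.61 (rank 82, adjusted p = 0.999964, edgeR).

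For the synthesis enzyme and the transporter, the 2 deletion libraries were far apart. Tph2 had 22.5 and 2.58 CPM in deletion neurons against 24.2, 21.6, 34.0 and 74.4 CPM in control neurons. The first deletion library lay inside the control range and the other was lower than every control library, so the log2 fold change of -1.61 ± 0.81 had a large error (rank 1003, edgeR). It was -3.89 without deletion replicate 1 and -0.78 without deletion replicate 3.

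Slc6a4 had 8.18 and 1.53 CPM in deletion neurons against 10.4, 11.9, 30.5 and 61.7 CPM in control neurons. Both deletion libraries were below the lowest control library, the first by a small margin, and the log2 fold change was -2.55 ± 0.91 (rank 250, adjusted p = 0.999964, edgeR). Nkx2-2, the progenitor factor, had 6.64 and 5.24 CPM in deletion neurons against 23.4, 11.7, 9.75 and 4.11 CPM in control neurons. Here the deletion libraries lay within the control range (-1.02 ± 0.71, rank 2653, edgeR).

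None of these differences passed the adjusted threshold in edgeR, which called 0 of 17931 genes between deletion and control neurons (0% of genes, at 2 libraries against 4), with 651 genes at an unadjusted p under 0.05. DESeq2 called 64 genes, of which 52 were lower (0.29% of genes), and Fev and Gata2 were among them with adjusted p-values of 0.0224 and 0.0323; Gata3 had 0.0598 and Slc6a4 0.132. In the authors' deposited table, where 0.216% of 15764 genes were called lower, Gata2 had an adjusted p of 0.000538, Gata3 of 0.0707, Fev of 0.0726 and Slc6a4 of 0.235. Both deletion libraries lay below all 4 control libraries for 4 of the 6 members, as they did for 5.52% of all genes. The median log2 fold change of the 6 members was -2.33, beside -0.03 over all genes tested. As the members were chosen with earlier results of these data known, this contrast is a description.

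**Figure D2:**
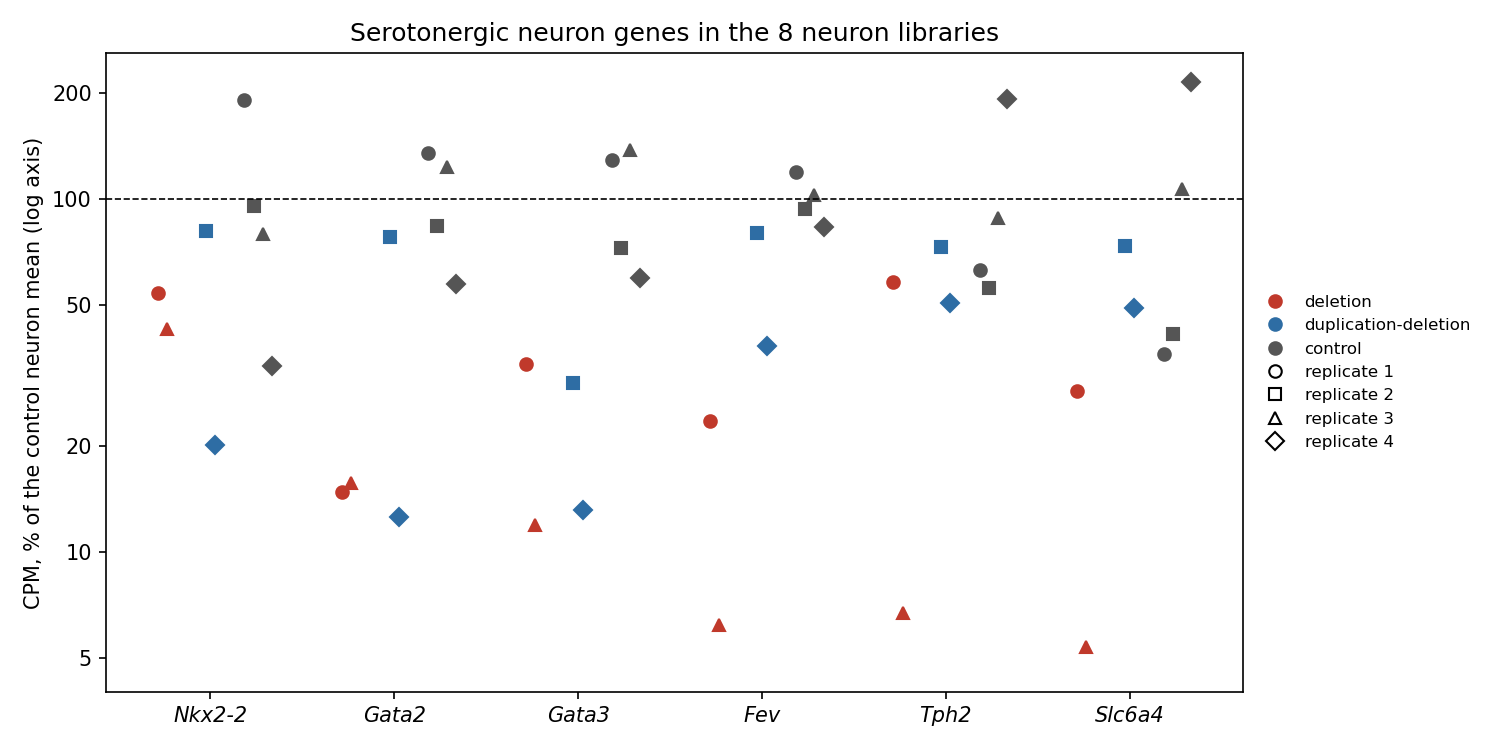
CPM of each gene in each of the 8 neuron libraries as a percentage of the mean of the 4 control libraries, on a log axis; the dashed line is 100% and symbols give the replicate number. Deletion libraries reach 14.8% and 15.6% for Gata2 and 23.4% and 6.18% for Fev, and for Tph2 they are 58.2% and 6.69%.

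Duplication-deletion neurons were set against the same control libraries, and the log2 fold changes of all 6 members were below 0 there, as they were in deletion neurons. Gata3 had 4.70 and 2.06 CPM in duplication-deletion neurons against 20.3, 11.4, 21.7 and 9.37 CPM in control neurons, a log2 fold change of -2.22 ± 0.61 (rank 146 of 17931, adjusted p = 0.620, edgeR). DESeq2 called it (adjusted p = 0.0198), and in the authors' deposited table it was -2.22 ± 0.50 with an adjusted p of 0.00266. The groups did not overlap for this gene.

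Gata2 had 4.67 and 0.748 CPM in duplication-deletion neurons against 8.06, 5.02, 7.36 and 3.44 CPM in control neurons. One duplication-deletion library was inside the control range and the other as low as the deletion libraries; the log2 fold change of -1.15 ± 0.70 was -3.01 without duplication-deletion replicate 2 and -0.37 without duplication-deletion replicate 4. Fev had 1.94 and 0.931 CPM, from 105 and 56 counts, in duplication-deletion neurons against 2.02 to 2.90 CPM in control neurons. Both libraries were below the controls, the first only just, and the log2 fold change was -0.76 ± 0.64 (adjusted p = 0.798, edgeR).

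The 2 transmitter genes lay within or beside the control range in duplication-deletion neurons. Tph2 had 28.3 and 19.6 CPM against 21.6 to 74.4 CPM in control neurons, and Slc6a4 had 21.1 and 14.1 CPM against 10.4 to 61.7 CPM. Their log2 fold changes were -0.70 ± 0.77 and -0.72 ± 0.82, smaller than their standard errors. Nkx2-2 had 9.96 and 2.46 CPM in duplication-deletion neurons against 4.11 to 23.4 CPM in control neurons, a difference of -0.98 ± 0.71 (adjusted p = 0.766, edgeR).

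Between duplication-deletion and control neurons edgeR called 7 of 17931 genes (0.039%), 5 of them lower (0.0279%), and no member; 1295 genes had an unadjusted p under 0.05. DESeq2 called 97 genes lower (0.541%), 1 of them a member, Gata3, and the authors' deposited table listed 0.629% of genes as lower. The duplication-deletion libraries were below all control libraries for 2 members, Fev and Gata3, as they were for 8.52% of genes. The median over the 6 members was -0.87, beside -0.05 over all genes, with the same limit from the choice of members.

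Set directly against duplication-deletion neurons, deletion neurons had 0.568 and 0.150 CPM of Fev against 1.94 and 0.931 CPM in duplication-deletion neurons, without overlap (-1.98 ± 0.76, adjusted p = 0.529, edgeR). Slc6a4 was also without overlap, 8.18 and 1.53 CPM in deletion neurons against 21.1 and 14.1 CPM in duplication-deletion neurons (-1.83 ± 0.95, adjusted p = 0.588, edgeR). Such a separation, deletion below, was found for 21.5% of all genes, as only 2 libraries stand on each side. The deletion libraries are replicates 1 and 3 and the duplication-deletion libraries replicates 2 and 4. Between these libraries, a difference of genotype and one that goes with replicate number cannot be told apart. For Gata2 (-1.55 ± 0.79) and Tph2 (-0.91 ± 0.87) the groups overlapped, and Gata3 (0.12 ± 0.63) and Nkx2-2 (-0.04 ± 0.79) had differences smaller than their standard errors. edgeR called 6 genes here (0.0335%), none of them a member, and 1586 had an unadjusted p under 0.05.

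Over all 8 neuron libraries, Pearson's r between the log2 CPM of 2 members was 0.498 or more for 13 of the 15 pairs. It was 0.96 for Tph2 with Slc6a4, 0.87 for Gata2 with Gata3 and 0.80 to 0.84 for Fev with Gata2, Gata3, Tph2 or Slc6a4. The 2 pairs near 0 were Nkx2-2 with Tph2 (r = 0.0889) and with Slc6a4 (r = -0.0335). By ranks (Spearman's rho), Fev was at 0.881 with Gata2 and 0.905 with Gata3, but at 0.571 with Tph2 and 0.452 with Slc6a4. Ranks gave 0.786 for Tph2 with Slc6a4 and 0.810 for Gata2 with Gata3. These libraries share 3 genotypes and 1 scaling, so the coefficients are a description. Within the control neurons the members did not all follow each other: Fev varied least, 1.44-fold between the lowest and highest library, Gata2 and Gata3 varied 2.34-fold and 2.31-fold, Tph2 3.44-fold, Nkx2-2 5.69-fold and Slc6a4 5.94-fold. Control replicate 4 had the highest Tph2 and Slc6a4 of the 4 and at the same time the lowest Gata2, Gata3, Fev and Nkx2-2. Control replicate 1 showed the other arrangement, with the highest Nkx2-2, Gata2 and Fev and the lowest Slc6a4. Tph2 counts per Fev count were 39.6 and 17.2 in deletion neurons, 14.6 and 21.1 in duplication-deletion neurons and 8.36, 9.5, 13.6 and 36.8 in control neurons. The ratios of all mutant libraries were above those of control replicates 1, 2 and 3. Control replicate 4, at 36.8, was above every mutant ratio but that of deletion replicate 1.

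Slc6a4 counts per Tph2 count ranged less, 0.364 and 0.594 in deletion neurons, 0.747 and 0.716 in duplication-deletion neurons and 0.429 to 0.898 in control neurons. Gata3 counts per Gata2 count were 6.05 and 2.00 in deletion neurons and 1.01 and 2.76 in duplication-deletion neurons, whereas the 4 control libraries stayed between 2.26 and 2.94. Gata3 counts per Fev count were 9.41 and 12.4 in deletion neurons and 2.42 and 2.21 in duplication-deletion neurons. They were 6.99, 4.99, 8.67 and 4.64 in control replicates 1, 2, 3 and 4. By this ratio both deletion libraries were above, and both duplication-deletion libraries below, every control library. The deletion ratios rest on 27 and 9 counts of Fev, and 9.41 was close to the 8.67 of control replicate 3. How often ratios of other genes separate the groups in this way was not measured. The deletion libraries are replicates 1 and 3 and the duplication-deletion libraries 2 and 4. Among the controls, replicates 1 and 3 also had the higher ratios, so part of this separation may go with replicate number. The ratios were not tested.

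**Figure D3:**
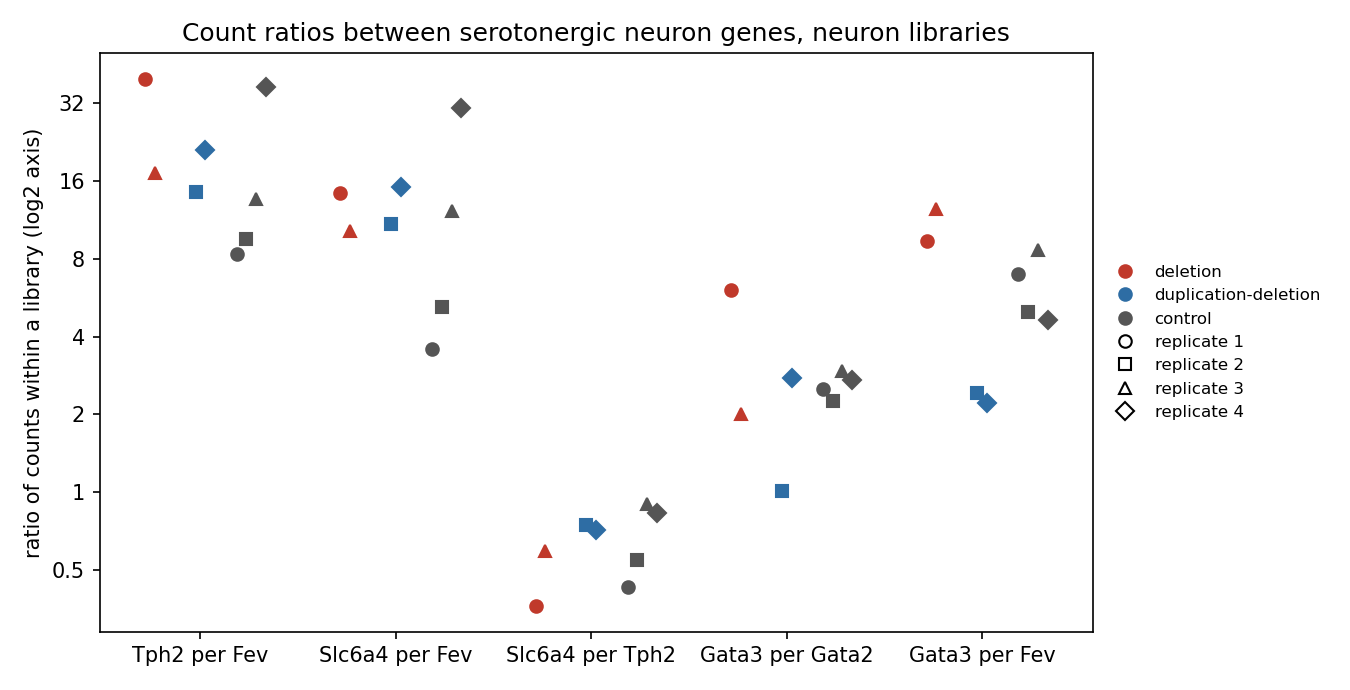
Ratios of expected counts between pairs of members within each neuron library, on a log2 axis; symbols give the replicate number. The Slc6a4 to Tph2 ratio spans 0.364 to 0.898 over the 8 libraries. For Gata3 to Fev the deletion libraries lie above and the duplication-deletion libraries below the control libraries. The deletion ratios of Gata3 to Fev rest on 27 and 9 counts of Fev. Deletion libraries are replicates 1 and 3 and duplication-deletion libraries 2 and 4, and the control ratio of Gata3 to Fev is also higher in replicates 1 and 3.

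The long non-coding RNA 4930412O13Rik neighbours Gata3, and reads of the pair may not be fully separated. It had 0.378 and 0.466 CPM in deletion neurons, 0.889 and 0.366 CPM in duplication-deletion neurons and 4.49, 1.91, 5.09 and 3.16 CPM in control neurons, with no overlap between either mutant and the controls. The log2 fold change was -3.09 ± 0.68 in deletion neurons (DESeq2 adjusted p = 0.000862; edgeR adjusted p = 0.772) and -2.55 ± 0.65 in duplication-deletion neurons (DESeq2 adjusted p = 0.0108; edgeR adjusted p = 0.575). Nkx2-2as, which overlaps Nkx2-2 on the other strand, held 48 counts in the 4 control neuron libraries together, 25 in the 2 deletion and 12 in the 2 duplication-deletion libraries, small beside the 2527, 631 and 686 counts of Nkx2-2 in the same groups.

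The rise from NPCs to neurons was also present in both mutants for the genes at the end of the pathway. In deletion neurons 3 of the 6 members were called higher than in deletion NPCs, where 12.7% of all genes were called higher. Fev and Tph2, which did not pass the filter on low counts among NPCs, could again only be called higher. Fev had 36 counts over the 2 deletion neuron libraries and 0 over the 3 deletion NPC libraries, at least 15.0-fold higher (adjusted p = 0.00348, edgeR). Tph2 was higher by 6.23 ± 1.31 (adjusted p = 0.000962, edgeR), by 7.07 without neuron deletion replicate 3, 4.01 without neuron deletion replicate 1 and 7.94 without NPC deletion replicate 1, and stayed past the threshold in each case. Slc6a4 had 481 counts against 1, a ratio of levels of 601 with a counting interval of 107 to 23773 (adjusted p = 0.000932, edgeR). Its fitted log2 value, which depends on the prior count, was 8.83 with every library, 7.23 without neuron deletion replicate 1, 9.58 without neuron deletion replicate 3, 8.21 without NPC deletion replicate 1 and 10.81 without NPC deletion replicate 5, each past the threshold.

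In duplication-deletion neurons Fev, Tph2 and Slc6a4 were again called higher than in duplication-deletion NPCs, where 10.6% of all genes were called higher. The same limit holds here for Fev and Tph2. Fev had 161 counts against 1, a ratio of levels of 197 with a counting interval of 34.8 to 7817 (adjusted p = 0.00220, edgeR), and its fitted log2 value was 7.21 with every library, 6.58 without neuron duplication-deletion replicate 2 and 9.02 without NPC duplication-deletion replicate 4, both past the threshold. Tph2 was higher by 8.56 ± 1.48 (adjusted p = 0.000203, edgeR) and Slc6a4 by 6.80 ± 1.49 (adjusted p = 0.00198, edgeR). Without NPC duplication-deletion replicate 5 the value of Slc6a4 was 8.37, and without replicate 2 or 4 of those NPCs the value of Tph2 was 7.83 or 9.60, all past the threshold. These intervals and the floor cover counting error only.

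The GATA factors did not pass the threshold in that step in either mutant. Gata3 had 3.60 ± 2.46 CPM in deletion neurons (SD, n = 2) and 0.518 ± 0.481 CPM in deletion NPCs (SD, n = 3), a difference of 2.77 ± 1.28 (adjusted p = 0.120, edgeR); in the duplication-deletion cells it was 3.38 ± 1.87 CPM (SD, n = 2) and 0.685 ± 0.219 CPM (SD, n = 3), a difference of 2.29 ± 1.27 (adjusted p = 0.215, edgeR). Gata2 had 0.908 ± 0.0348 CPM in deletion neurons (SD, n = 2) and 1.48 ± 1.28 CPM in deletion NPCs (SD, n = 3), a difference of -0.71 ± 0.91 (adjusted p = 0.622, edgeR), and in duplication-deletion cells the difference was 0.52 ± 0.87 (adjusted p = 0.752, edgeR). Nkx2-2 differed by -0.63 ± 0.89 and 0.53 ± 0.87 in the deletion and duplication-deletion cells.

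Whether a mutant's difference from control itself changed between NPCs and neurons was tested with an interaction term. No member passed the adjusted threshold, for either mutant, and edgeR called 1 gene (0.005%) for the deletion and 0 for the duplication-deletion, with 619 and 1004 genes at an unadjusted p under 0.05; DESeq2 called 8 and 34 genes. For Gata2 the deletion effect was lower in neurons than in NPCs by a log2 difference of -2.13 ± 1.14 (adjusted p = 0.999932, edgeR), and for Nkx2-2 by -1.37 ± 1.10. The corresponding values for the duplication-deletion were -0.89 ± 1.11 and -0.21 ± 1.09. Gata3, Tph2 and Slc6a4 had few counts in NPCs. For the deletion they gave -2.71 ± 1.65, -3.28 ± 1.62 and 1.34 ± 2.03, and for the duplication-deletion -3.19 ± 1.67, -0.95 ± 1.78 and -0.69 ± 1.71. For Fev, with 0 counts in control NPCs, the value depends on the prior count and is not given. The differences seen in neurons are therefore not shown to be absent from NPCs.

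Among NPCs, 4 members passed the filter on low counts (Gata2, Gata3, Slc6a4 and Nkx2-2) and none was called between genotypes. Nkx2-2 averaged 9.20 ± 2.85 CPM in deletion NPCs and 4.27 ± 3.04 CPM in duplication-deletion NPCs (SD, n = 3 each), against 7.30 ± 4.79 CPM in control NPCs (SD, n = 5). Its log2 fold change was 0.34 ± 0.57 in deletion and -0.76 ± 0.60 in duplication-deletion NPCs. Gata2 averaged 1.48 ± 1.28, 1.87 ± 1.60 and 2.23 ± 1.15 CPM in the deletion, duplication-deletion and control NPCs, with differences of -0.57 ± 0.77 and -0.24 ± 0.76. For both genes, replicate 5 of the duplication-deletion NPCs was the lowest of its group, with 33 counts of Nkx2-2 and 6 of Gata2.

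Gata3 had 0.179 to 1.07 CPM in deletion NPCs, 0.516 to 0.932 CPM in duplication-deletion NPCs and 0 to 0.647 CPM in control NPCs, and differed by 0.59 ± 1.13 and 0.97 ± 1.12. Slc6a4 had 1 count over the 3 deletion NPC libraries, 16 over the 3 duplication-deletion and 39 over the 5 control libraries. Its log2 fold change against control NPCs was -3.81 ± 1.91 in deletion NPCs (adjusted p = 1, edgeR), the largest of the 4 members tested in that comparison, and 0.14 ± 1.46 in duplication-deletion NPCs. Fev was at 0 or 1 count in each NPC library, and Tph2 totalled 25 counts in deletion, 8 in duplication-deletion and 13 in control NPCs. Between NPC genotypes edgeR called 1 gene for deletion against control (0.00596%), 2 for duplication-deletion against control (0.0119%) and 4 for deletion against duplication-deletion (0.0238%), with 598, 447 and 673 genes at an unadjusted p under 0.05.

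In ESCs, Gata2 and Gata3 passed the filter and were not called; edgeR called 0 of 16470 genes (0%) in each of the 3 genotype comparisons, with 207, 51 and 164 genes at an unadjusted p under 0.05, and DESeq2 called 7, 4 and 18. Gata2 averaged 1.12 ± 0.44 CPM in deletion, 0.821 ± 0.203 CPM in duplication-deletion and 0.758 ± 0.459 CPM in control ESCs (SD, n = 3 each), and differed from control by 0.62 ± 0.77 and 0.16 ± 0.75. Gata3 averaged 0.520 ± 0.745, 0.798 ± 0.273 and 0.394 ± 0.376 CPM in the same groups, with 1 library at 0 counts in the deletion and 1 in the control group, and differed by 0.53 ± 1.59 and 1.04 ± 1.57. The remaining 4 genes were at the edge of detection. Fev had 1 count over all 9 ESC libraries and Nkx2-2 had 3. Slc6a4 had up to 27 counts in a library, in control replicate 2, and Tph2 up to 33, in deletion replicate 2.

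Ranked over the 9 groups, control neurons had the highest mean level of all 6 genes. For Fev, Tph2 and Slc6a4 the order below it was duplication-deletion neurons, then deletion neurons, then every ESC and NPC group. The ranges of neighbouring groups in this order overlapped for Tph2 and for Slc6a4 between control and duplication-deletion neurons, and for Tph2 between duplication-deletion and deletion neurons. For Gata3 deletion and duplication-deletion neurons followed the control with overlapping ranges, 3.60 ± 2.46 and 3.38 ± 1.87 CPM (SD, n = 2 each). Gata2 in deletion neurons ranked 7th, below all 3 NPC groups and the deletion ESCs, and its range lay inside the range of each of those 4 groups. Nkx2-2 formed a run of 6 NPC and neuron groups between 4.27 and 12.2 CPM in which no neighbouring groups were separated, well above the ESC groups.

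The other genes of the pathway were read from lists that do not hold the members, and no gene of any of the 14 lists was called by edgeR in a neuron comparison with control; the named genes are those with the smallest p in a list. Beside medians of -0.03 and -0.05 over all genes, the median over 11 tested factors of serotonergic progenitors and young neurons was -0.32 in deletion neurons, with 8 below 0, and 0.28 in duplication-deletion neurons, with 4 below 0. En2, a homeobox gene of the midbrain and rostral hindbrain, had 4.16 and 3.55 CPM in deletion neurons, 42.3 and 7.35 CPM in duplication-deletion neurons and 21.7 to 48.2 CPM in control neurons. Its paralog En1 had 12.2 and 11.3 CPM in deletion neurons, 145 and 38.1 CPM in duplication-deletion neurons and 35.2 to 81.8 CPM in control neurons. Both were lower in each deletion library than in any control library, with log2 fold changes of -3.31 ± 0.70 and -2.21 ± 0.57 (edgeR adjusted p = 0.672 and 0.999964). In duplication-deletion neurons the smallest p-values of this list belonged to the progenitor factors Nkx6-2, at 3.44 and 2.63 CPM against 6.49 to 16.9 CPM in control neurons, and Foxa1, at 144 CPM in each library against 33.4 to 120 CPM.

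Among 11 tested genes of serotonin synthesis, storage and breakdown the median was -0.71 in deletion neurons, with 7 below 0, and -0.29 in duplication-deletion neurons, with 8 below 0. Ddc, the decarboxylase that completes the synthesis of both serotonin and dopamine, had 38.3 and 45.5 CPM in deletion neurons, 276 and 82.7 CPM in duplication-deletion neurons and 111 to 159 CPM in control neurons. The deletion libraries did not reach the control range (-1.74 ± 0.47, edgeR adjusted p = 0.999964), while the duplication-deletion libraries lay on either side of it. Slc22a3, a low-affinity monoamine transporter, had 0 and 1 count in deletion neurons, 7 and 3 in duplication-deletion neurons and 10 to 64 in control neurons. The breakdown enzyme Maoa had 42.1 and 41.9 CPM in duplication-deletion neurons against 55.2 to 67.1 CPM in control neurons (-0.53 ± 0.23, edgeR adjusted p = 0.689).

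Of 10 tested serotonin receptor genes, 6 were below 0 in deletion neurons, with a median of -0.64, and 7 in duplication-deletion neurons, with a median of -1.06. Htr1a, whose product is also the autoreceptor of serotonergic neurons, had 11 and 15 counts in deletion neurons, 52 and 49 in duplication-deletion neurons and 31 to 67 in control neurons. Htr1b, another autoreceptor, had 6 and 10 counts in deletion neurons, 12 and 33 in duplication-deletion neurons and 21 to 54 in control neurons. Their log2 fold changes in deletion neurons were -1.77 ± 0.80 and -2.20 ± 0.97 (edgeR adjusted p = 0.999964). In duplication-deletion neurons Htr5a had 1 and 0 counts against 25 to 69 in control neurons, and Htr7 differed by -1.72 ± 0.73 (edgeR adjusted p = 0.684).

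Lists of markers of other cell types gave the following values beside the members. The labelled cell type was present: the 11 dopaminergic genes summed to 262 and 364 CPM in deletion neurons, 546 and 1203 CPM in duplication-deletion neurons and 485 to 759 CPM in control neurons, and in control cells 9 of 10 tested were called higher in neurons than in NPCs. Against control neurons their median was -1.67 in deletion neurons, with 10 of 11 below 0, and 0.90 in duplication-deletion neurons, with 9 of 11 above 0. In deletion neurons the smallest p-values belonged to Chrna6, a nicotinic receptor subunit of dopaminergic neurons (-3.38 ± 0.78), and the dopamine transporter Slc6a3 (-2.25 ± 0.74), and in duplication-deletion neurons to the lineage factors Lmx1a (0.90 ± 0.37) and Nr4a2 (1.34 ± 0.59).

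The 14 genes of the GATA-dependent GABAergic lineage, with which Gata2 and Gata3 are shared, summed to 184 and 268 CPM in deletion neurons, 202 and 204 CPM in duplication-deletion neurons and 149 to 578 CPM in control neurons. Their median was -0.86 in deletion and -1.65 in duplication-deletion neurons, with 13 of 14 below 0 in each. Tal1, the partner of the GATA factors, had 10.5 and 6.58 CPM in deletion neurons, 3.54 and 1.43 CPM in duplication-deletion neurons and 70.7, 10.7, 48.7 and 11.7 CPM in control neurons. Like Gata2 and Gata3, it was highest in control replicates 1 and 3. Its log2 fold change was -2.03 ± 0.83 in deletion and -3.84 ± 0.92 in duplication-deletion neurons; Tal2 had -3.84 ± 1.05 in deletion neurons, and Gad1, which makes GABA, -2.31 ± 0.72 in duplication-deletion neurons (edgeR adjusted p of 0.543 or more for all of these).

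The 14 pan-neuronal genes had medians of -0.16 in deletion neurons, with 10 of 14 below 0, and -0.39 in duplication-deletion neurons, with 12 of 14 below 0, and sums of 3176 and 3971, 2228 and 4022, and 2651 to 4785 CPM in deletion, duplication-deletion and control neurons; the lower duplication-deletion library, replicate 4, was below every control library. The 8 astrocyte genes had medians of -0.47 and -0.53, the 10 progenitor and proliferation genes 0.19 and 0.08, the 7 oligodendrocyte lineage genes -1.07 and -0.34, the 8 tested genes of the isthmus -0.73 and -0.25, and the 7 tested noradrenergic and motor neuron genes -0.18 and -0.34, in deletion and duplication-deletion neurons. The 6 tested blood and endothelial genes had medians of -0.56 and 0.53 and the 5 tested trophoblast genes 1.95 and -0.03. All listed blood and endothelial genes summed to 4.38 and 4.79 CPM in deletion, 24.2 and 46.2 CPM in duplication-deletion and 4.05 to 17.9 CPM in control neurons. Both duplication-deletion libraries were thus above every control library. The listed trophoblast genes summed to 4.33 and 13.4, 3.81 and 16.2, and 1.44 to 4.92 CPM in the same order. The 10 hindbrain Hox genes summed to 0.167 and 0.421 CPM in deletion neurons, 0.296 and 0.382 CPM in duplication-deletion neurons and 0 to 0.930 CPM in control neurons. The part of these cell types in the members' differences was not tested.

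**Figure D4:**
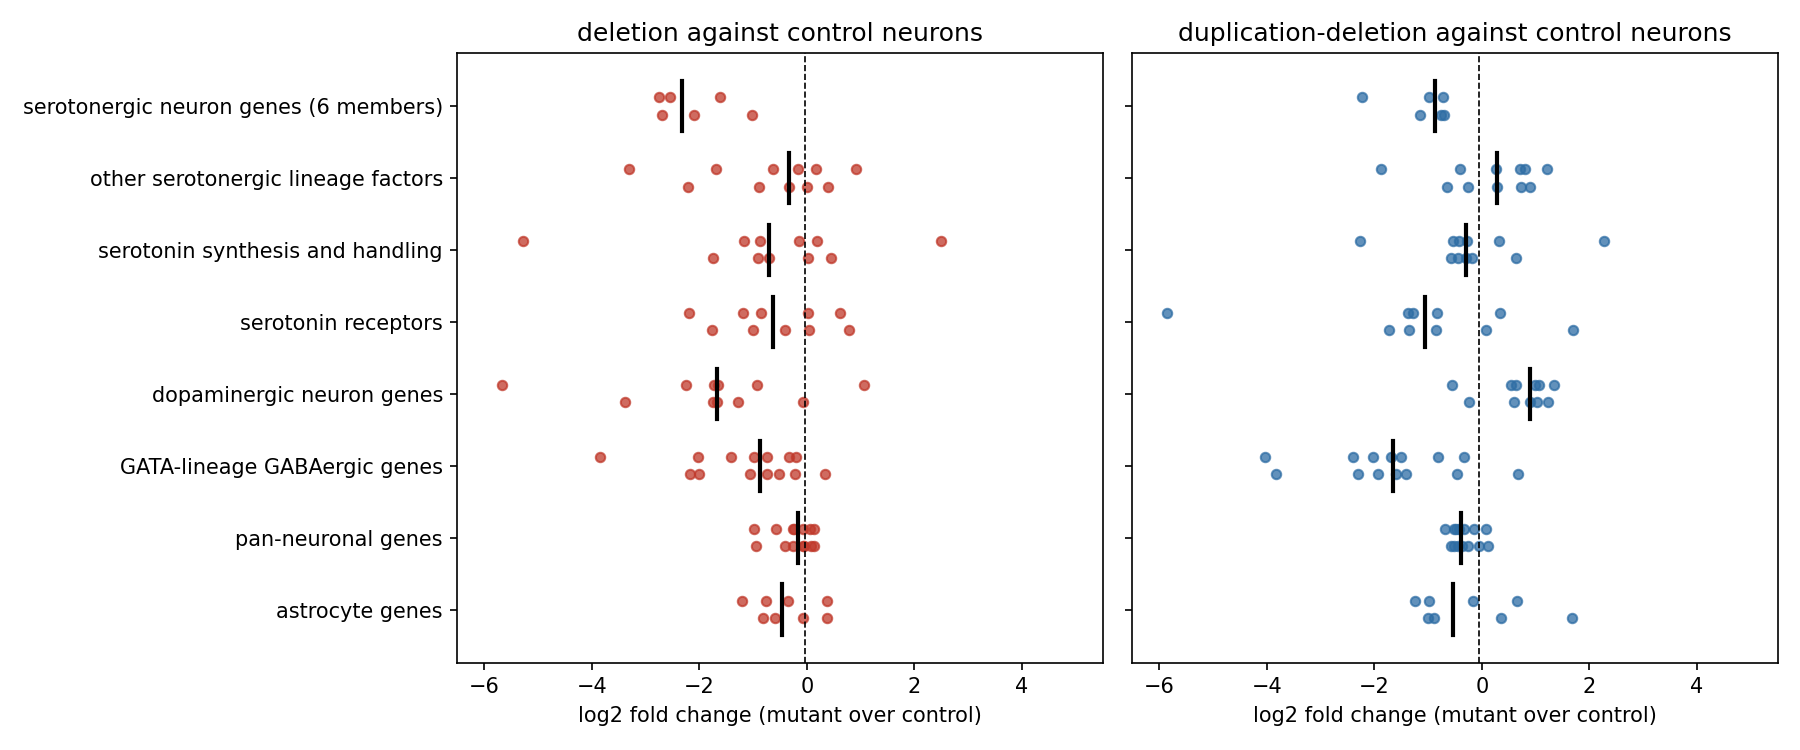
Log2 fold change of every tested gene in the 6-member set and in 7 lists, in deletion neurons (left) and duplication-deletion neurons (right) against the same control neurons; points are genes, thick lines are medians and the dashed line is the median of all genes tested. The members' median is -2.33 in deletion and -0.87 in duplication-deletion neurons, the dopaminergic median is -1.67 and 0.90, and the pan-neuronal median is -0.16 and -0.39. The values of genes with 0 or 1 count in a group depend on the prior count. Members and lists were chosen with earlier results of these data known.

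The genes whose pattern over the 8 neuron libraries was most like that of the members were found by Pearson's r between log2 CPM and the mean of the members' standardised log2 CPM, among 11081 genes with a mean of at least 5 CPM. The 6 highest were Homer2 (r = 0.969), Cnpy1 (r = 0.967), Nxph1 (r = 0.960), Slitrk1 (r = 0.945), Aldh1a1 (r = 0.942) and Slitrk5 (r = 0.921). For Fev alone they were Aldh1a1 (r = 0.967), Slitrk5 (r = 0.958), Nxph1 (r = 0.941), Adar3 (r = 0.937), Cnpy1 (r = 0.931) and Mgat4c (r = 0.923). These coefficients are descriptions over 8 libraries that share 3 genotypes and 1 scaling, and the genes were picked as the highest of many.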

How the data were processed

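RNA was measured in 28 libraries of mouse ESCs, NPCs and immature dopaminergic neurons; 6 Hi-C samples of the series are not analysed here. Per the labels' protocols, total RNA went into stranded libraries that were sequenced from both ends. The authors deposited expected counts per gene, which are estimates and need not be whole (6392 of 29968 entries were not), for which the submitters' processing notes name the aligner STAR 2.6.0c, the quantifier RSEM 1.3.0 and the build mm9. A deposited table of the authors' comparisons, for which the notes name DESeq2 1.22.2, gives log2 fold changes, p-values and adjusted p-values, a base mean on a normalized signal scale, and their standard errors and test statistics, which are scores; its codes read as mutant over control when set against DESeq2 fits of the counts. Only genes that passed the authors' TPM filter are in that table, so its percentages have another denominator.

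Here 92 spike-in entries were removed, expected counts were rounded to whole numbers, and edgeR 4.0.16 (R 4.3.3, limma 3.58.1) was run with TMM scaling, filterByExpr by group and the robust quasi-likelihood fit; a standard error is the log2 fold change divided by the square root of F. Each stage was fitted with its 3 genotypes, control stages together, and stage changes within mutants and interactions in a fit of all 28 libraries. CPM used library totals without spike-ins times the TMM factor. Deletion and duplication-deletion comparisons share control libraries. For NPC duplication-deletion samples a description label names the deletion only; title and genotype label name both and were used. No 2 libraries of a group held matching counts. In ESCs, same-numbered libraries deviated together (9 pairs, correlations 0.224 to 0.692), and the block changed no call of a member there.

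On simulated data for the deletion neurons (17565 genes), 1.49% of genes changed by 1 on the log2 scale were recovered. For genes changed by 2 and by 4 it was 31.3% and 89.4%. Changes were planted only in genes above a minimum mean level, so recovery at lower levels was not measured. Sequences are from RefSeq (GRCm38.p6), which had an upstream window for all 6 members; no proteins or binding data were used.

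The members and the 14 gene lists were chosen with earlier results of these data known. The text names all 6 members and, from a list, the 2 genes with the smallest p where none passed the threshold. Alternatives were RLE scaling, no filter, DESeq2 1.42.0, leaving out each library, the replicate number as a block, other sets of libraries in a fit, and leaving out the NPC replicate 5 or ESC replicate 3 libraries.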

Additional observations from a re-analysis of the deposited data

Results flagged for a closer look

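Tph2 in NPC control replicate 4 stood apart from the other 4 control NPC libraries, at 0.177 CPM from 9 counts, whereas the others held 0 to 3 counts. For normally distributed values, chance marks about 1 in 20 groups by this outlier rule. Counts of 0 to 9 are not such values, and other genes and groups were screened too, so that rate need not hold here. Without that library the increase of Tph2 from control NPCs to control neurons was 10.89 rather than 9.57 on the log2 scale, and it passed the threshold either way.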

How the results depend on the processing

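The number of members called was 0 in edgeR for both neuron comparisons with control, and 2 (deletion, DESeq2) and 1 (duplication-deletion, DESeq2) otherwise. From control ESCs to control NPCs 1 member was called, but 2 with DESeq2, with the replicate block and when leaving out libraries (1 to 2; 2 without NPC control replicate 5, Gata2 adjusted p = 0.0262). From control NPCs to control neurons it was 4 to 5 with a library left out; Gata2 had an adjusted p of 0.0623 with the replicate block and 0.0866 with all 28 libraries in one fit.

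For same-numbered libraries of neurons and NPCs the labels give a shared number and nothing more. Deviations correlated at 0.0819 to 0.495 in neurons (4 pairs, all above 0) and at -0.0307 to 0.481 in NPCs (7 pairs). In neurons the largest entry held 38.8% and 36.8% of counts in replicate 1 of control and deletion. It held 19.6% and 21.6% in replicate 4 of control and duplication-deletion. Whether same-numbered libraries share a batch was not tested, and the main fits hold no replicate block. With the replicate block the genes called over all genes were 13 rather than 0 for deletion against control neurons, 40 rather than 7 for duplication-deletion against control neurons and 21 rather than 6 between the mutants, and Gata3 between the mutant neurons was -0.94 rather than 0.12.

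DESeq2 called 64, 158 and 246 genes in those 3 comparisons, 93, 49 and 101 in NPCs and 7, 4 and 18 in ESCs (edgeR 1, 2 and 4, and 0, 0 and 0). With the block the NPC counts were 11 for deletion against control and 2 between the mutants, and the ESC counts 9, 7 and 13. Without a filter 14 genes were called for duplication-deletion against control neurons and 26 between the mutants. With 2 groups alone in the fit, 0 were called between mutant neurons and 3, 1 and 1 in the NPC comparisons; RLE scaling called 1 for duplication-deletion against control NPCs. Without the ESC replicate 3 libraries 2 and 3 genes were called for duplication-deletion against control and deletion against duplication-deletion. The change from NPCs to neurons in duplication-deletion cells called 2783 rather than 4206 genes with that genotype alone, and the interaction terms 8 and 34 with DESeq2 and 0 for the deletion with the block. From control NPCs to neurons the median over all genes was 0.10 in edgeR and 0.22 in DESeq2.

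Leaving out single libraries turned the sign of some uncalled differences. Between deletion and duplication-deletion neurons, Gata2 ranged from -2.33 to 0.33, Gata3 from -0.82 to 0.84 and Nkx2-2 from -0.72 to 1.32. In NPCs Gata2 ranged from -1.04 to 0.26 for duplication-deletion against control, 0.023 without the NPC replicate 5 libraries, and from -1.34 to 0.45 between the mutants. From NPCs to neurons Gata2 ranged from -1.05 to 0.33 in deletion and -1.33 to 1.32 in duplication-deletion cells, where Nkx2-2 ranged from -0.80 to 1.23, and its duplication-deletion interaction ranged from -1.54 to 0.49. Against control neurons, all 6 members stayed below 0 in both mutants whichever library was left out: in deletion neurons Fev was -3.97 to -2.08, Gata2 -2.88 to -2.53, Gata3 -3.04 to -1.54, Slc6a4 -4.21 to -1.80, Tph2 -3.89 to -0.78 and Nkx2-2 -1.31 to -0.52. In duplication-deletion neurons some came close to 0: Slc6a4 was -1.07 to -0.015, Tph2 -1.01 to -0.16, Nkx2-2 -2.32 to -0.30 and Fev -1.40 to -0.33. Gata2 was -3.01 to -0.37 there and Gata3 -2.95 to -1.75. The cause of these differences was not tested. Where a group is left with 1 library, it is assumed to vary like the others. For control cells, leaving out the NPC replicate 5 or ESC replicate 3 libraries is the same as leaving out that control library. Only 2 mutant neuron libraries and, for Fev, 9 to 152 counts a library limit precision.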

Other observations

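Slc18a2, which encodes the vesicular monoamine transporter that loads both serotonin and dopamine into vesicles, was singled out after its values were seen. It was listed at 0 counts in control neuron replicate 1, a library with 1694 counts of Th and 484 of Slc6a4, and at 1413, 2481 and 3826 counts in the other control neurons. It had 83 and 1528 counts in deletion neurons and 4546 and 800 in duplication-deletion neurons, so its range spanned both mutants and the controls.

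Between replicates of the same genotype, the ratio of Tph2 to Nkx2-2 counts spanned a wide range, from 0.492 to 3.38 in deletion neurons, 2.84 to 7.99 in duplication-deletion neurons and 1.04 to 18.1 in control neurons. It was lowest in deletion replicate 3 and highest in control replicate 4.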
